A study of Mus musculus with 16 samples.

Results

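Itih4, Nat8, Cacnb2, Dync2h1 and Fam120c differed in pancreatic transcript level among obese Lep(ob/ob) mice. Some of these mice were given a cholecystokinin (CCK) receptor antagonist and the others were untreated. Outside the Reg family, only these 5 genes passed an adjusted p of 0.05 in edgeR with batch in the model. Of 24411 gene symbols counted, 13660 were tested. Other settings called other numbers of genes, such as 92 with DESeq2 and batch and 2 in batch B alone. The 5 genes were chosen from the difference between treated and untreated mice, so its size is given below as a description. Refits of it under other settings use the same mice and are not independent evidence. RNA-seq libraries were made from the whole pancreas of 16 male mice aged 12 weeks, 1 mouse per library. The groups were 5 lean WT mice, 7 untreated Lep(ob/ob) mice, which lack functional leptin and become obese, and 4 Lep(ob/ob) mice that drank an antagonist from 6 weeks of age for 6 weeks (CCKRi). Proglumide at 0.1 mg/mL was given to mice 69 and 72 and lorglumide at 0.05 mg/mL to mice 74 and 76. The libraries carry 2 batch labels. All 4 CCKRi mice are in batch B together with 2 WT and 3 untreated mice, and batch A consists of the remaining 3 WT and 4 untreated mice. Outside batch B, the antagonist and the batch therefore cannot be told apart. The labels describe the WT mice as bred in house, whereas the methods of the study name a vendor for both genotypes.

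CCK is a peptide hormone that stimulates the acinar cells of the pancreas to secrete digestive enzymes, and proglumide and lorglumide compete with it for its receptors. The 5 genes belong to unrelated families. Itih4 encodes a secreted heavy chain of the inter-alpha-trypsin inhibitor family, which is best known as an acute phase protein of the liver that rises with interleukin-6. Nat8 encodes an acetyltransferase of the endoplasmic reticulum that completes the formation of mercapturates, the form in which glutathione conjugates are excreted. Cacnb2 encodes a cytoplasmic beta subunit that brings the pore of voltage-gated calcium channels to the cell surface, Dync2h1 encodes the heavy chain of the dynein motor that carries cargo back from the tip of the cilium, and Fam120c is a paralog of Fam120a.

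Depth differed between the batches. The total count per mouse was 19.2 to 34.5 M in batch A, against 9.87 to 15.9 M in batch B. The share of the 50 most counted genes was likewise higher in batch A (79.2% to 85.0%) than in batch B (49.3% to 77.1%). All 9 acinar markers were detected in every group, and their summed normalized count was 1.59 to 11.8 M per mouse. In such bulk tissue, fewer cells of a type and less RNA per cell cannot be told apart. Levels below are normalized counts, the deposited raw counts divided by 1 size factor per mouse. Fold changes are log2 values from edgeR with batch in the model, and adjusted p is by the Benjamini-Hochberg method over 13660 genes. Counts of listed genes at an unadjusted p under 0.05 are given without the share of all genes at that p. Nothing is read from them.

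The upstream sequence of Itih4 and of Nat8 is shown because these 2 genes also differed between lean and obese mice. Both come from the RefSeq promoter table for GRCm38.p6 and cover the 250 bases before a start site. The first lies at chr14:30886226-30886475 on the plus strand, directly upstream of Itih4 (chromosome 14, 30886476 to 30902353, protein coding). The second lies at chr6:85832280-85832529 on the minus strand, upstream of Nat8 (chromosome 6, 85830388 to 85832082, protein coding). Capitals mark matches to the searched motifs on either strand.
Itih4: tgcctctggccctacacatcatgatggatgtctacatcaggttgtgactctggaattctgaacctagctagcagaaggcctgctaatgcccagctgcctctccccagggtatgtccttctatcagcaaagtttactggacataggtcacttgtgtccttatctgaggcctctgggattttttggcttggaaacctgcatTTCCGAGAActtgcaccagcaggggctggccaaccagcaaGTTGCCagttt
Nat8: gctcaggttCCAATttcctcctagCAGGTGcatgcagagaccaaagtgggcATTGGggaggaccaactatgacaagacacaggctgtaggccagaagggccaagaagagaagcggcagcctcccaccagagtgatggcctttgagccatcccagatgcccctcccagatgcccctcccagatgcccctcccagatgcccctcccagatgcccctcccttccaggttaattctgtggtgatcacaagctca

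The Itih4 sequence holds 1 match to TTCNNNGAA, the palindrome that activated STAT factors are known to bind, as TTCCGAGAA at positions -51 to -43 from the start site. This motif occurs in 7.02% of the 32851 promoters of this length. A match to GTTGCC, which occurs in 10.4% of them, lies at -11 to -6. The Nat8 sequence holds 2 matches to CCAAT (33.9% of promoters) and 1 to CACCTG (17.2%). A second Nat8 start site in the same table, with its 250 bases at chr6:85836858-85837107, holds 1 match to GTTGCC. Further motifs searched on both strands were CTGGGAA (9.10% of promoters) of acute phase genes and GGGCGG (32.7%), which Sp1 binds, as well as the AP-1 motif TGANTCA, the cyclic AMP response element, the E-box CACGTG, the HNF1 motif and the TATA box motif TATAAA, with no match in either printed sequence. No motif overlaps another in the 2 printed sequences. The promoters also differed in base composition. The Itih4 sequence has a GC content of 50.8% and 1 CpG, the printed Nat8 sequence 58.0% and 1 CpG. GC content was higher at the start site of Fam120c (67.2%, 23 CpG) and the more upstream of the Cacnb2 start sites (73.2%, 30 CpG). The other Cacnb2 start site had 46.0% and 3 CpG, and the second Nat8 start site 53.6% and 7 CpG. The medians over all promoters were 52.4% and 6 CpG. The RefSeq start site used for Dync2h1 lies inside its gene model (chromosome 9, 6928503 to 7184446, minus strand). Its 250 bases, at chr9:7177059-7177308, had 46.0% and 7 CpG. Both Cacnb2 start sites also lie inside the model of that gene (chromosome 2, 14603088 to 14987908, plus strand). The 250 bases of Fam120c end at 151344222, past the start of its model at 151344175.

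The question was first whether these genes also differ between lean and obese mice. Itih4 rose and Nat8 fell in Lep(ob/ob) mice, and CCKRi mice lay towards the lean level of both. Cacnb2, Dync2h1 and Fam120c did not pass the test between lean and obese mice, and their group means were highest in CCKRi mice. In Lep(ob/ob) against WT, 2 of the 5 genes passed an adjusted p of 0.05, compared with 9.07% of all genes tested. In CCKRi against WT, 2 of the 5 passed (Cacnb2 and Dync2h1), compared with 5.57%. These comparisons share their obese or their treated mice with the one that chose the genes, so they are not independent of it. In the comparison that chose them, the 5 genes and 3 Reg genes made up the 8 genes called, 0.0586% of those tested, from which nothing is read here. Lean and obese mice did not overlap for 2 of the 5 genes (Itih4 and Nat8), compared with 4.19% of all genes. CCKRi and WT mice did not overlap for Cacnb2 and Dync2h1, compared with 11.5%. Within batch B the groups are so small that 33.2% of all genes did not overlap between obese and lean mice, 21.7% between CCKRi and lean mice and 8.73% between CCKRi and untreated obese mice.

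**Figure D1:**
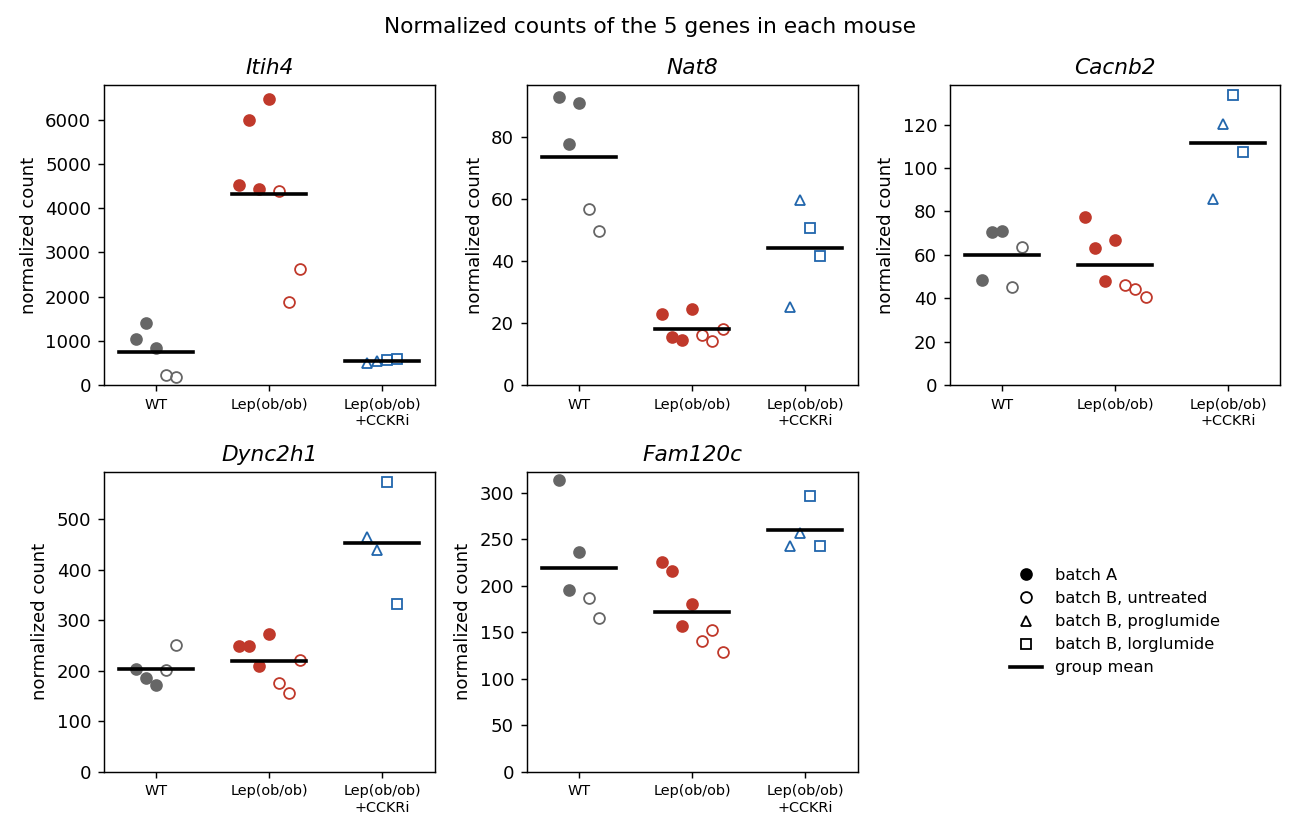
Normalized count (linear axis from 0) of each gene in each mouse, by group. Filled points are batch A, open points batch B, triangles proglumide, squares lorglumide and bars group means. Itih4 reaches 1877 to 6475 in Lep(ob/ob) mice and 494 to 583 in CCKRi mice, and Nat8 14.1 to 24.5 and 25.2 to 59.6, whereas the CCKRi mice have the highest means of Cacnb2, Dync2h1 and Fam120c.

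Itih4 showed the largest fold changes of the 5 genes in Lep(ob/ob) mice. Its normalized count was 1039, 1398 and 848 in the WT mice of batch A and 237 and 187 in those of batch B. In Lep(ob/ob) mice the lowest value was 1877, the median 4428 and the highest 6475. The obese mice all exceeded the lean mice, and within each genotype batch B was lower. In WT the mean was 1095 ± 279 (SD, n = 3) in batch A and 212 ± 35.1 (SD, n = 2) in batch B. In CCKRi mice, Itih4 was 494 and 538 under proglumide and 555 and 583 under lorglumide. All 4 lay below every Lep(ob/ob) mouse, and they varied little, with a mean of 543 ± 37.2 (SD, n = 4). Counting was not limiting, since the lowest raw count was 146 reads.

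Itih4 rose in Lep(ob/ob) against WT by 2.85 on the log2 scale (SE 0.30, adjusted p = 4.72e-05, edgeR). The rise was 2.33 within batch A (adjusted p = 0.000123) and 3.77 within batch B (adjusted p = 0.00806, edgeR). It was 2.28 and 3.76 when both batches had their own genotype term, and this difference between batches did not pass adjustment (unadjusted p = 0.00653, adjusted p = 0.354, edgeR). In CCKRi against untreated Lep(ob/ob) mice, the values that chose the gene were a log2 fold change of -2.13 (SE 0.33, adjusted p = 0.0259). Within batch B, the mean of untreated mice was 5.47 times that of CCKRi mice, and the ranges did not overlap (1877 to 4398 against 494 to 583).

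Whether CCKRi mice reached the lean level of Itih4 depended on the batch. Across batches the groups overlapped, and the mean was 742 ± 523 (SD, n = 5) in WT. The fit with batch gave 0.72 above WT (SE 0.37, 95% interval -0.06 to 1.49, adjusted p = 0.352, edgeR). Without batch in the model the sign turned, to -0.45 (adjusted p = 0.550, edgeR). Within batch B, all 4 CCKRi mice exceeded both WT mice, with a mean 2.56 times as high, a comparison of 4 with 2 mice. Itih4 passed as higher than in WT in 3 of 29 alternatives. It was 1.38 with only the groups compared in the fit (adjusted p = 0.0105, edgeR). With scaling by library size alone it was 1.29 (adjusted p = 0.0107, edgeR), where the median of all genes was 0.47. Without the 4 mice of the highest adipocyte level it was 1.02 (adjusted p = 0.0226, edgeR). Lep(ob/ob) mice had the highest level, and whether CCKRi differed from WT mice depended on these choices. The acinar marker sum also differed between batches, at 10.7 to 11.8 M in WT of batch A and 3.04 to 5.54 M in WT of batch B. Over the 16 mice, with group and batch fitted, r with the acinar sum was 0.61 for Itih4 and 0.58 for Nat8. It was -0.30 to 0.13 for the other 3 genes. Itih4 also had an r of -0.67 with the marker sum of nerve and glia and -0.47 with that of motile cilia. These points share library depth and composition, and the part of acinar RNA in the Itih4 difference was not tested.

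Itih4 is made mainly by the liver, so hepatocyte markers were measured too. Their summed normalized count was 370 to 1220 in lean mice, 65.4 to 412 in untreated obese mice and 95.4 to 408 in CCKRi mice. Cyp2e1, a cytochrome P450 abundant in hepatocytes, had the highest median of these markers in lean mice, and its median was 431 in lean, 61.2 in untreated obese and 53.8 in CCKRi mice. Alb, the main plasma protein made by hepatocytes, had a median of 37.3 in lean, 40.0 in untreated obese and 58.2 in CCKRi mice. The highest raw count in any untreated Lep(ob/ob) mouse was 541 for Cyp2e1, 162 for Alb, 16 for Apoa2, 12 for Apoa1, 4 for Ahsg and 2 for Cps1. In WT mice the highest was 550 for Cyp2e1, 543 for Alb, 36 for Apoa2, 44 for Apoa1, 37 for Ahsg and 34 for Cps1. WT mouse 5492 had the highest hepatocyte sum of all mice (1220) and the highest Itih4 of the WT mice (1398). The part of hepatocyte RNA in the Itih4 difference was not tested. Per kb of exon, Itih4 had a level at percentile 91.7 of genes in lean, 98.5 in untreated obese and 89.3 in CCKRi mice. Its nearest tested neighbours on chromosome 14 (Mustn1, Tmem110, Nek4 and Spcs1) had log2 fold changes of -0.34 to 0.70 in Lep(ob/ob) against WT, and none passed the test.

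The other genes of the inter-alpha-trypsin inhibitor family were low or did not pass. Itih1 and Itih3, which adjoin Itih4, had at most 11 and 8 reads in any mouse and were not tested, as was Tnfaip6, whose product transfers heavy chains to hyaluronan. Itih2 changed by 0.29 in Lep(ob/ob) against WT (adjusted p = 0.576) and by -0.98 in CCKRi against Lep(ob/ob) (adjusted p = 0.276, edgeR). Itih5 differed by 1.27 (adjusted p = 0.164) and -0.50 (adjusted p = 0.690) in these comparisons. Ambp, which encodes the light chain bikunin, differed by -0.12 (adjusted p = 0.807) and 0.12 (adjusted p = 0.865, edgeR).

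Of 10 acute phase genes tested among 25 listed, 4 rose in Lep(ob/ob) against WT and 1 fell, compared with 9.07% of all genes called, and the median log2 fold change was 2.01 against -0.02 over all genes. Lrg1, a glycoprotein of the acute phase, rose by 2.21 (adjusted p = 0.00522), Hp (haptoglobin) by 3.14 (adjusted p = 0.0276) and Lbp, which binds bacterial lipopolysaccharide, by 2.44 (adjusted p = 0.0244, edgeR). Saa3 rose by 1.83 (adjusted p = 0.0488), and Cp (ceruloplasmin) fell by 0.45 (adjusted p = 0.0237, edgeR). Adipocytes also make several of these proteins. The adipocyte marker sum ranged widely, over 1693 to 6044 in lean mice, 1424 to 35315 in untreated obese mice and 4300 to 24735 in CCKRi mice. It was 6692, 10795 and 35315 in the untreated obese mice of batch B and at most 10216 in those of batch A. Its 7 markers did not all move alike. In Lep(ob/ob) against WT 5 of them were positive, but the only one called was Cfd, which was lower. The median of Cfd was 678 in lean, 48.4 in untreated obese and 58.3 in CCKRi mice. By the adipocyte sums, the 4 mice of the highest level are untreated obese mouse 417 of batch A, mice 461 and 463 of batch B and CCKRi mouse 69. Mouse 464 is then the only untreated obese mouse left in batch B. Fits without the 4 mice therefore compare CCKRi with untreated obese mice inside that batch through this mouse alone. Without the 4 mice of the highest adipocyte level, 3 of 11 acute phase genes rose and 1 fell, compared with 12.3% of all genes, and the median became 1.001. Hp became 1.63 and Lbp 1.20, Saa3 no longer passed (1.30, adjusted p = 0.123), and Itih4 was 2.77 (adjusted p = 2.02e-07, edgeR). In batch B alone, none of 13 acute phase genes passed, where 0.057% of all genes did, and the median was 2.72. DESeq2 with batch called 6 of the 10 higher and 1 lower, where it called 12.4% of all genes. The part of adipocyte RNA in these values was not tested. Saa3 passed in 11 of 27 alternatives, Cp in 17 of 28, Hp in 22, Lbp in 23 and Lrg1 in 27.

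None of the 10 acute phase genes passed in CCKRi against Lep(ob/ob) with edgeR or with DESeq2 and batch. Of all genes, 0.0586% and 0.673% passed there. In the edgeR fit 4 of the 10 had an unadjusted p under 0.05, and the median was -0.79 against -0.01 over all genes. That median was -0.14 without the 4 mice of the highest adipocyte level, -0.99 in batch B alone and -0.76 with DESeq2 and batch. Against WT, Cp alone passed in CCKRi mice in the reported fit (-0.64, adjusted p = 0.0178, edgeR), where 5.57% of all genes did, and 3 of 11 were higher and 1 lower without those 4 mice, compared with 9.64% of all genes. Of 12 genes of the STAT3 pathway, through which interleukin-6 acts on the acute phase, 2 rose in Lep(ob/ob) against WT, compared with 9.07% of all genes called. These were Il6ra, the interleukin-6 receptor, by 1.17 (adjusted p = 0.000191), and Cebpd by 0.65 (adjusted p = 0.0493, edgeR). Cebpd passed in 10 of 28 alternatives, and without the 4 mice of the highest adipocyte level it did not (0.62, adjusted p = 0.0593, edgeR). Il6ra was also higher in CCKRi than in WT mice, by 1.15 (adjusted p = 0.00172), and differed by -0.02 between CCKRi and Lep(ob/ob) mice (adjusted p = 0.958, edgeR). None of the 12 passed between CCKRi and Lep(ob/ob) mice with edgeR or with DESeq2 and batch, where 0.0586% and 0.673% of all genes did. In the edgeR fit 10 of the 12 values were negative, 4 had an unadjusted p under 0.05, and the median was -0.36. This median was -0.44 in batch B alone, -0.38 with DESeq2 and batch and 0.02 without the 4 mice of the highest adipocyte level. With library size alone it was 0.0008, where the median of all genes was 0.31.

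Nat8 moved opposite to Itih4. Its normalized count was 92.9, 77.7 and 90.9 in the WT mice of batch A and 56.8 and 49.7 in those of batch B. In Lep(ob/ob) mice the lowest value was 14.1, the median 16.2 and the highest 24.5, all below every WT mouse. CCKRi mice had 25.2 and 59.6 under proglumide and 50.7 and 41.7 under lorglumide. The lowest of them, mouse 69, lay just above the highest Lep(ob/ob) mouse, and the range overlapped that of WT. These levels rested on few reads, 12 to 30 raw counts in Lep(ob/ob), 32 to 64 in CCKRi and 35 to 91 in WT mice.

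Nat8 fell in Lep(ob/ob) against WT by 2.01 on the log2 scale (SE 0.22, adjusted p = 5.73e-05, edgeR). Within batch A it fell by 2.13 (adjusted p = 0.000373), and within batch B, with 3 against 2 mice, the value was -1.76 (adjusted p = 0.133, edgeR). The values that chose the gene in CCKRi against Lep(ob/ob) were 1.60 (SE 0.27, adjusted p = 0.0439). Against WT, CCKRi mice had -0.41 (SE 0.29, 95% interval -1.01 to 0.19, adjusted p = 0.531, edgeR). That interval includes no difference and also a level less than WT by 1 log2 unit. When counts were scaled by library size alone this value turned to 0.05, but the median of all genes moved to 0.47. The order of the levels was WT, CCKRi and Lep(ob/ob), where the first pair overlapped.

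Nat8 lies in a cluster of related acetyltransferase genes on chromosome 6, and its nearest tested genes at higher coordinates were family members too. Of the 50-base stretches of its transcript, 5.68% also occur in transcripts of Nat8f1, Nat8f4 or the pseudogene Nat8b-ps, so a small part of its reads could be shared. Nat8f1 (listed as Cml1) had a mean normalized count of 470 ± 52.8 (SD, n = 5) in lean mice, which was 304 ± 94.8 (SD, n = 7) without and 398 ± 136 (SD, n = 4) with antagonist in obese mice. Its log2 values were -0.65 in Lep(ob/ob) against WT (adjusted p = 0.112) and 0.50 in CCKRi against Lep(ob/ob) (adjusted p = 0.453, edgeR). Nat8f4 (listed as 1700019G17Rik) had -0.79 (adjusted p = 0.0761) and 0.84 (adjusted p = 0.300) in these comparisons. Both had the signs of Nat8 with smaller values, and neither passed the test. Of their own 50-base stretches, 14.6% for Nat8f1 and 18.1% for Nat8f4 also occur in transcripts of other genes. For Nat8f1 this was 45.6% when both strands were counted, so its reads could be shared too. DESeq2 with batch called 1 of the 3 other family members lower in Lep(ob/ob) than in WT, where it called 12.4% of all genes. Nat8l, which makes N-acetylaspartate and lies on chromosome 5, had -0.06 (adjusted p = 0.973) and -0.67 (adjusted p = 0.692, edgeR). The remaining family members with a row had at most 34 reads in any mouse and were not tested.

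Among 23 tested genes of the glutathione and mercapturate pathway, Gclc alone passed in the reported edgeR fit, in both comparisons with WT, where 9.07% of all genes passed in Lep(ob/ob) and 5.57% in CCKRi mice. In both, 2 of the 23 passed without the 4 mice of the highest adipocyte level. There 12.3% of all genes passed in Lep(ob/ob) and 9.64% in CCKRi mice. With library size alone 2 passed in both, against 5.75% and 7.39% of all genes. In the reported fit none passed in CCKRi against Lep(ob/ob), where 0.0586% of all genes did and 4 of the 23 had an unadjusted p under 0.05. DESeq2 with batch called 3 of them in Lep(ob/ob) against WT, all higher, where it called 12.4% of all genes. It called 4 in CCKRi against WT, 2 higher and 2 lower, where it called 7.79%, and 1 in CCKRi against Lep(ob/ob), which was lower, where it called 0.673%. Gclc encodes the catalytic subunit of the rate-limiting enzyme of glutathione synthesis. It rose by 0.98 in Lep(ob/ob) against WT (adjusted p = 0.00344) and by 1.36 in CCKRi against WT (adjusted p = 0.00223, edgeR). Anpep, an aminopeptidase of the same list, was among the genes just outside the threshold in CCKRi against Lep(ob/ob), at -0.95 (adjusted p = 0.107, edgeR). Its normalized count was 749 to 1087 in CCKRi and 1410 to 3625 in Lep(ob/ob) mice, without overlap.

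**Figure D2:**
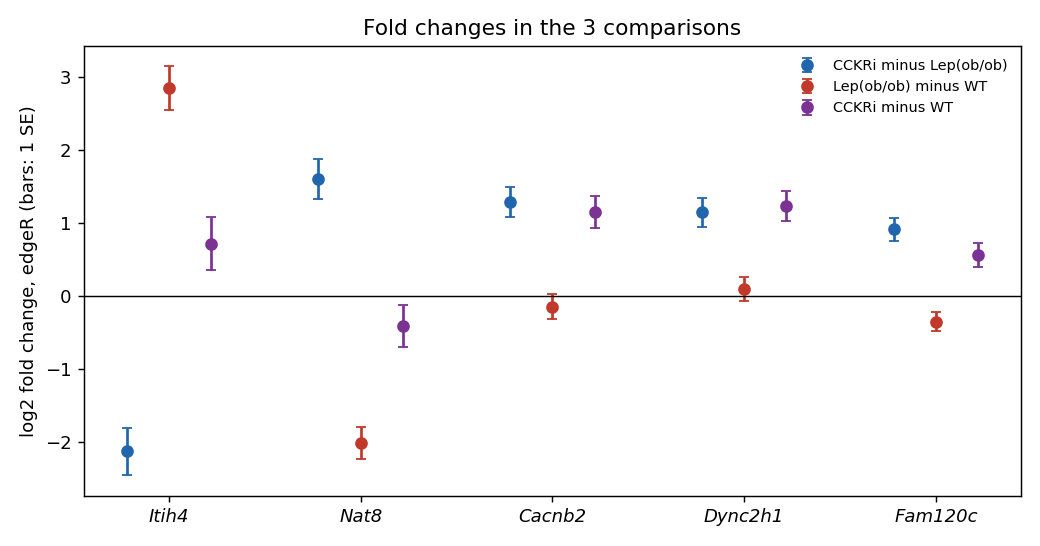
Log2 fold change of each gene in each comparison, from edgeR with batch in the model (bars, 1 SE). Itih4 and Nat8 have opposite signs in CCKRi against Lep(ob/ob) and in Lep(ob/ob) against WT, and for Cacnb2 and Dync2h1 the values of CCKRi against either group lie between 1.14 and 1.29.

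Cacnb2 was similar in lean and obese mice and highest in CCKRi mice. Its normalized count was 48.5, 70.6, 71.0, 45.4 and 63.8 in WT. In Lep(ob/ob) it was 40.6 at the lowest, 48.0 at the median and 77.4 at the highest. CCKRi mice had 85.8 and 120 under proglumide and 134 and 107 under lorglumide, all above every mouse of both other groups. Cacnb2 was higher in CCKRi than in WT mice by 1.14 on the log2 scale (SE 0.22, adjusted p = 0.00443, edgeR). Within batch B this was 1.04 with no overlap, but with 4 against 2 mice it did not pass (adjusted p = 0.173, edgeR), nor did it with only the compared groups in the fit (adjusted p = 0.0762) or with proglumide mice alone as the treated group (adjusted p = 0.0720). In Lep(ob/ob) against WT the value was -0.15 (SE 0.17, 95% interval -0.51 to 0.22, adjusted p = 0.656, edgeR). The values that chose the gene in CCKRi against Lep(ob/ob) were 1.29 (SE 0.21, adjusted p = 0.0365).

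Of 12 calcium channel subunits tested besides Cacnb2, 3 rose in Lep(ob/ob) against WT, compared with 9.07% of all genes called there. These were Cacnb3, another beta subunit, by 1.06 (adjusted p = 0.00199), Cacna2d1, an extracellular auxiliary subunit, by 1.09 (adjusted p = 0.00198) and Cacna1c, the pore of an L-type channel, by 0.74 (adjusted p = 0.0423, edgeR). Cacna1c passed in 16 of 28 alternatives, and Cacnb3 and Cacna2d1 in 27. None of the 12 passed in batch B alone, where 0.057% of all genes did. Against WT, 3 of the 12 passed in CCKRi mice, compared with 5.57% of all genes. They were higher in Cacna2d1 by 1.16 (adjusted p = 0.00758), in Cacna1c by 1.17 (adjusted p = 0.0154) and in Cacna1b, the pore of an N-type channel, by 2.29 (adjusted p = 0.00920, edgeR). Cacna1b rests on 1 to 7 raw reads in WT and 9 to 17 in CCKRi mice. In batch B alone none of the 12 passed in this comparison, where 0.0926% of all genes did. None of the 12 passed in CCKRi against Lep(ob/ob) with edgeR or with DESeq2 and batch, where 0.0586% and 0.673% of all genes did. With edgeR 1 of the 12 had an unadjusted p under 0.05. Cacnb1 (0.16) and Cacnb3 (-0.33) had small values there, and Cacnb4, at 8.38 to 28.03 normalized counts in CCKRi and 0 to 18.4 in Lep(ob/ob) mice, had 1.502 (adjusted p = 0.378, edgeR). Beta cells carry voltage-gated calcium channels, and the beta cell marker sum was 18815 to 24136 in lean mice, 41699 to 208110 in untreated obese mice and 24360 to 230120 in CCKRi mice, so it overlapped between the obese groups. Its part in these values was not tested.

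Dync2h1, like Cacnb2, was highest in CCKRi mice. Its normalized count was 203, 186, 171, 201 and 252 in WT, and in Lep(ob/ob) the lowest value was 156, the median 221 and the highest 273. CCKRi mice had 465 and 440 under proglumide and 573 and 331 under lorglumide. All 4 exceeded every other mouse. Dync2h1 was higher in CCKRi than in WT mice by 1.24 (SE 0.21, adjusted p = 0.00157, edgeR). Within batch B the value was 1.01 with no overlap, and it did not pass (adjusted p = 0.174, edgeR). In Lep(ob/ob) against WT it was 0.09 (SE 0.16, adjusted p = 0.782, edgeR), but the batches differed in sign. Within batch A the 4 obese mice all exceeded the 3 lean ones and the value was 0.44 (adjusted p = 0.0454), whereas within batch B it was -0.34 (adjusted p = 0.512, edgeR). That difference between batches did not pass adjustment (unadjusted p = 0.0115, adjusted p = 0.378, edgeR). The values that chose the gene were 1.14 (SE 0.20, adjusted p = 0.0439). They fell to 0.78 without the 4 mice of the highest adipocyte level (adjusted p = 0.389, edgeR). That fit keeps only mouse 464 of the untreated obese mice of batch B.

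Besides Dync2h1, 35 genes of cytoplasmic dynein 2 and intraflagellar transport were tested. None passed in CCKRi against Lep(ob/ob) with edgeR or with DESeq2 and batch, where 0.0586% and 0.673% of all genes did. With edgeR 3 of the 35 had an unadjusted p under 0.05, and the values ran from -0.47 to 0.57 with a median of 0.11. In Lep(ob/ob) against WT, 3 of the 35 passed, compared with 9.07% of all genes. Ift57, a subunit of the anterograde transport complex, rose by 0.46 (adjusted p = 0.0465), and Ift20, of the same complex, fell by 0.84 (adjusted p = 0.0312). Dynlt3, a dynein light chain, fell by 0.59 (adjusted p = 0.0141, edgeR). Ift57 passed in 11, Ift20 in 18 and Dynlt3 in 25 of 28 alternatives. None of the 35 passed in CCKRi against WT in the reported edgeR fit, where 5.57% of all genes did. Of the 35, 3 had an unadjusted p under 0.05 there. Without the 4 mice of the highest adipocyte level 1 passed, against 9.64% of all genes. With library size alone 2 passed (7.39% of all genes), and with DESeq2 and batch 1 (7.79% of all genes). The marker sum of motile ciliated cells was 49.8 to 89.7 in lean mice, 30.6 to 57.9 in untreated obese mice and 61.5 to 89.7 in CCKRi mice, so it did not overlap between the obese groups. Of its 5 genes Ccdc39 alone did not overlap, compared with 6.07% of all genes. Its counts were 4.67 to 25.9 in untreated and 35.4 to 51.1 in CCKRi mice. Foxj1, the transcription factor that defines these cells, had medians of 14.01 and 12.97. Only 2 of the 5 were tested, and neither passed between the obese groups. Over the 16 mice, with group and batch fitted, the r of Dync2h1 was -0.73 with lymphocyte, -0.67 with endothelial, -0.66 with macrophage and -0.65 with fibroblast and pericyte marker sums. Cacnb2 had -0.64 with lymphocyte and -0.53 with macrophage sums, and Nat8 had -0.45 and -0.51. These points share library depth and composition. All 7 macrophage markers had an unadjusted p under 0.05 in CCKRi against Lep(ob/ob), with log2 values of -1.60 to -0.97, and none passed adjustment. The share of all genes at that unadjusted p is not given, so nothing is read from this count. The part of these cells in the Dync2h1 difference was not tested.

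Fam120c had the smallest difference of the 5 genes in CCKRi against Lep(ob/ob), the comparison that chose them. Its normalized count was 314, 195 and 237 in the WT mice of batch A and 187 and 165 in those of batch B, and in Lep(ob/ob) the lowest value was 128, the median 156 and the highest 226. CCKRi mice had 243 and 257.1 under proglumide and 296.4 and 243 under lorglumide. They exceeded every Lep(ob/ob) mouse but overlapped with WT, where 1 mouse of batch A was the highest of all. In CCKRi against WT the value was 0.56 (SE 0.17, 95% interval 0.21 to 0.91, adjusted p = 0.0611), and in Lep(ob/ob) against WT it was -0.35 (SE 0.13, adjusted p = 0.0985, edgeR), so neither passed. The comparison of CCKRi with WT mice passed in 6 of 29 alternatives, among them DESeq2 with batch (0.55, adjusted p = 0.0363). With edgeR it passed without the 4 mice of the highest adipocyte level (0.65, adjusted p = 0.0209). With library size alone, where the median of all genes was 0.47, it was 1.06 (adjusted p = 0.0137, edgeR). It also passed without Lep(ob/ob) mouse 417 or 463 or WT mouse 5489, at 0.58 to 0.62 (adjusted p = 0.0273 to 0.0464, edgeR). Within batch B, all 4 CCKRi mice exceeded both WT mice. The values that chose the gene were 0.91 (SE 0.16, adjusted p = 0.0439).

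Of the 50-base stretches of Fam120c transcripts, 10.7% also occur on the opposite strand in A230072E10Rik, an antisense gene that overlaps its start (chromosome X, 151344175 to 151471842, plus strand). The strand setting of the counting is not given in the sources used here, so reads of this overlap could count for either gene. The antisense gene had 1.20 in CCKRi against Lep(ob/ob) (adjusted p = 0.350, edgeR), and the effect of such reads was not tested. For Cacnb2, 5.90% of stretches were shared when both strands were counted, for Itih4 0.185% and for Dync2h1 none. Within the family, Fam120a, Fam120b and the antisense transcript Fam120aos did not pass in any of the 3 comparisons as reported. Without the 4 mice of the highest adipocyte level 1 of them was higher than in WT in both Lep(ob/ob) and CCKRi mice. There 12.3% and 9.64% of all genes were called. With library size alone 1 was higher in CCKRi than in WT mice, against 7.39% of all genes called. Fam120a differed by -0.01 (adjusted p = 0.966) and Fam120b by 0.39 (adjusted p = 0.346) in CCKRi against Lep(ob/ob). Fam120b reached 435 to 590 normalized counts in CCKRi and 245.4 to 440 in Lep(ob/ob) mice.

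**Figure D3:**
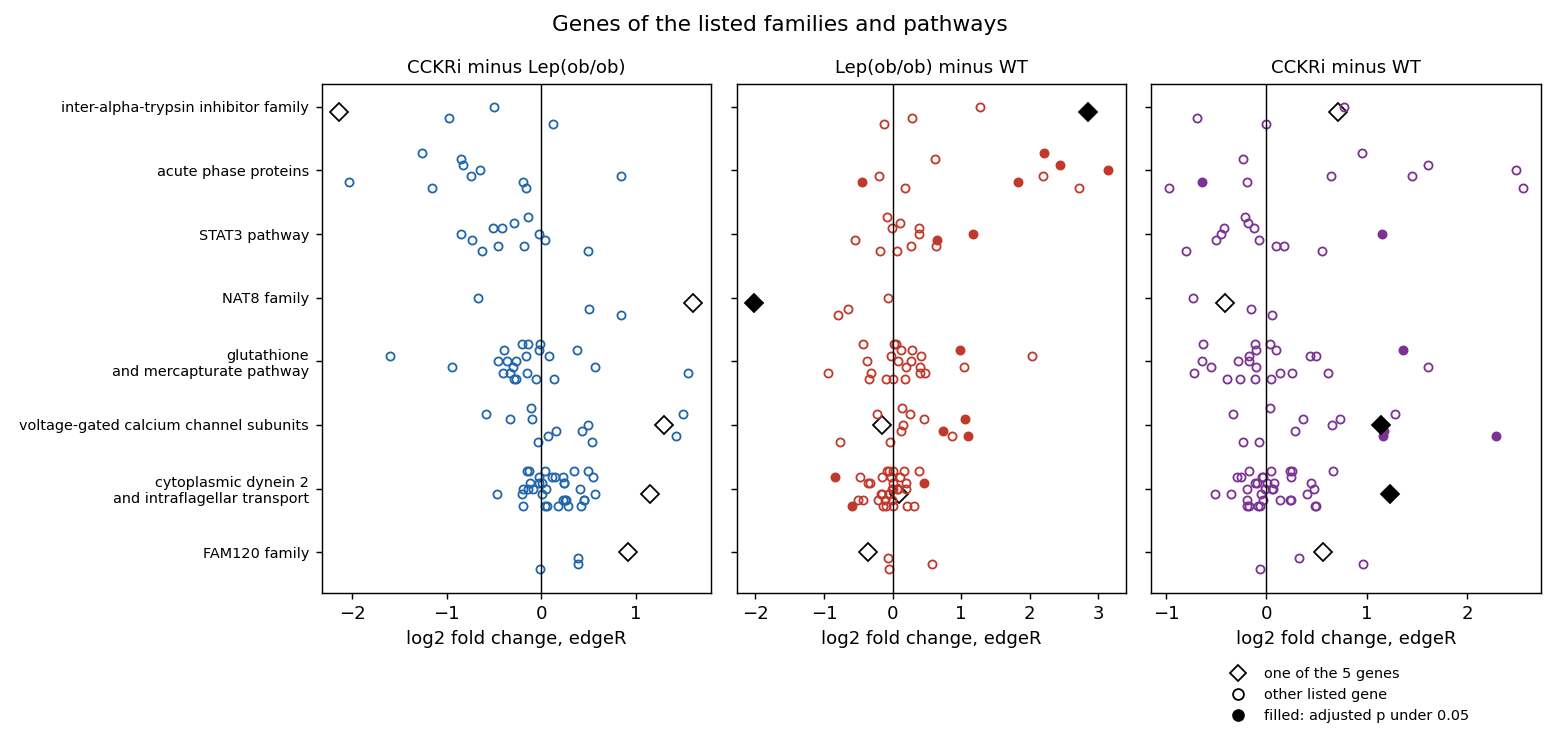
Log2 fold change (edgeR) of every tested gene of the 8 lists, one row per list, in the 3 comparisons; vertical spread within a row only separates the points. Diamonds are the 5 chosen genes, drawn open in CCKRi against Lep(ob/ob) because that comparison chose them, and filled points passed an adjusted p of 0.05: no other listed gene did so in CCKRi against Lep(ob/ob).

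Each drug was compared with the 3 untreated Lep(ob/ob) mice of batch B. Their doses differed, so their values stand side by side without a comparison. The mean of untreated mice was 5.75 times that of proglumide mice and 5.22 times that of lorglumide mice for Itih4. The proglumide and lorglumide means were 2.63 and 2.86 times the untreated mean for Nat8, 2.36 and 2.76 times for Cacnb2, 2.45 and 2.46 times for Dync2h1, and 1.78 and 1.92 times for Fam120c. The edgeR fits of 1 drug differ from these ratios in that they keep all WT and untreated Lep(ob/ob) mice of both batches. With 2 mice of 1 drug alone as the treated group, no gene passed there in CCKRi against Lep(ob/ob). The adjusted p of the 5 genes was then 0.333 for each under proglumide and 0.104 to 0.165 under lorglumide (edgeR).

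The calls in this comparison changed when single mice were left out. Leaving out mouse 72, mouse 74 or WT mouse 5494 left none of the 5 genes called. With each mouse left out, the log2 value was -2.24 to -1.73 for Itih4 and 1.42 to 1.81 for Nat8. It was 1.20 to 1.41 for Cacnb2, 0.995 to 1.27 for Dync2h1 and 0.85 to 0.95 for Fam120c. Across all 29 alternatives each gene kept its sign, with Itih4 called in 22, Cacnb2 in 12, Nat8 in 9, Dync2h1 in 8 and Fam120c in 7. Just inside the threshold were Fam120c, Nat8, Dync2h1 and a Reg gene, all at an adjusted p of 0.0439 (edgeR). Just outside it were Pvrl2 (-0.84, 0.0534), Chd5 (1.21, 0.0817), Orai1 (-1.20, 0.0817), Kcnq1ot1 (1.94, 0.107) and Anpep. The log2 value of Itih4 in batch B alone was -2.40. CCKRi and Lep(ob/ob) mice did not overlap for any of the 5 genes, nor for 6.07% of all genes tested. These groups, batch B included, are the ones that chose the genes, so neither the calls nor the lack of overlap support the difference.

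**Figure D4:**
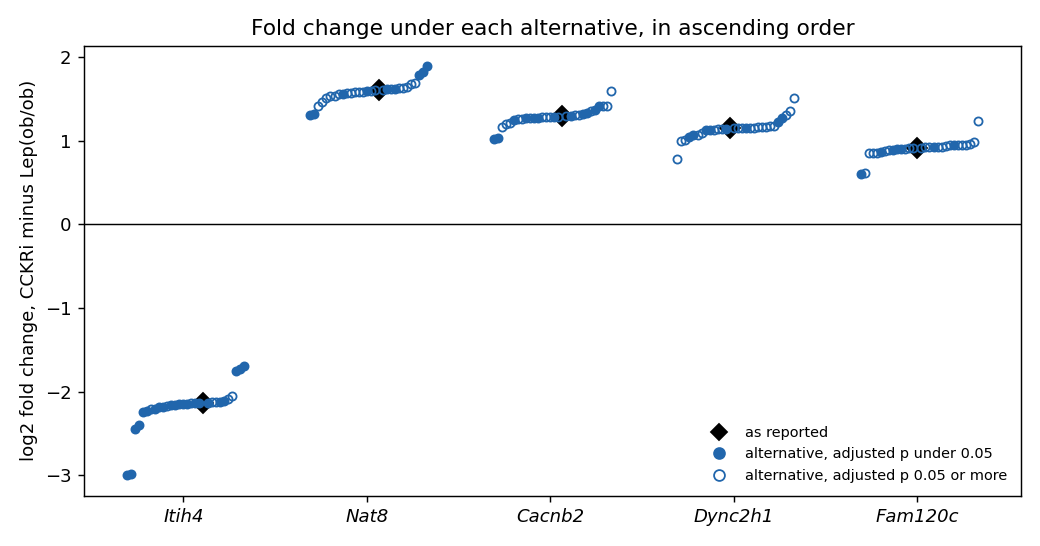
Log2 fold change in CCKRi against Lep(ob/ob) mice under each of 29 alternatives, in ascending order for each gene, with the reported value as a diamond. Filled points have an adjusted p under 0.05: the values of Itih4 run from -2.998 to -1.69 and those of the other genes stay above 0.

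The 5 genes did not vary together from mouse to mouse. With group and batch fitted, r between pairs of them over the 16 mice lay between -0.33 and 0.37. The genes most like Itih4 in this respect were Rapgef5 (r = 0.89), Kcnq1 (0.87) and Rnf167 (0.87). For Nat8 they were Fcgbp (0.86), Amigo1 (0.84) and Erc2 (0.82), and for Cacnb2 Wash1 (0.88), Zxda (0.87) and Dab1 (0.84). Dync2h1 was most like Dph7 (0.92), Cspp1 (0.92) and Gtpbp3 (0.92), and Fam120c most like Ncln (0.90), Cwf19l1 (0.89) and Nol8 (0.85). None of these 15 genes passed the test in any of the 3 comparisons. These values are the highest among all tested genes over 16 mice and are given as a description.

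**Figure D5:**
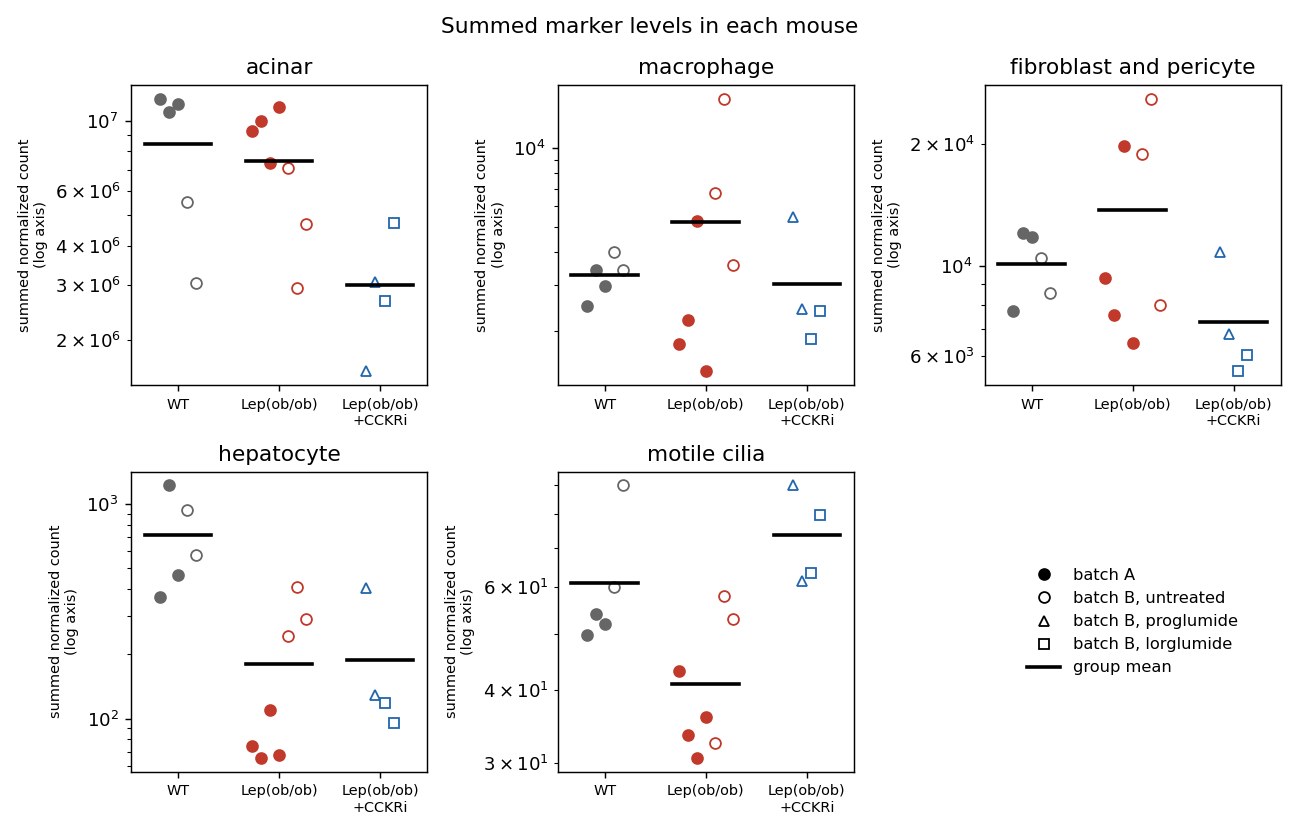
Summed normalized count (log axis) of the markers of 5 cell types in each mouse; filled points are batch A, open points batch B, triangles proglumide, squares lorglumide and bars group means. The acinar sum is 1.59 to 4.71 M in CCKRi mice and 2.93 to 11.04 M in Lep(ob/ob) mice, and the hepatocyte sum is lower in most Lep(ob/ob) mice than in WT.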

How the data were processed

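Per the labels, whole pancreas RNA of 16 mice was sequenced as stranded poly(A) libraries. The authors used Trim Galore 0.6.7 with CutAdapt 3.5 for trimming and STAR 2.7.9 for alignment to mm10. The counter, its strand setting and the annotation are not given in the sources used here. The authors deposited raw counts for 24411 gene symbols and, for 17548 of them, a normalized signal, the count divided by 1 size factor per mouse (0.617 to 1.44). Their methods name DESeq2, with no covariate stated.

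Raw counts were tested with edgeR 4.0.16 (TMM, filterByExpr, quasi-likelihood test; R 4.3.3, limma 3.58.1) in 1 model of 3 groups and batch over 16 mice, with 13660 genes kept and Benjamini-Hochberg adjustment (threshold 0.05). DESeq2 1.42.0 was an alternative. The model was tested on simulated data, from which nothing is read here. P-values measure the spread between mice. Residual correlations used log2 CPM with a prior count of 2. Outlying mice were looked for in 15 groups of values (5 genes, 3 groups). Gene models are from GENCODE for GRCm38 (95.7% of symbols matched, older ones through RefSeq synonyms) and promoters from RefSeq. The named genes are the 5 genes, the 5 just outside the threshold, listed genes that passed, close family members, the 3 most alike and the 2 nearest on each side. The 5 genes and all lists were chosen with earlier results of these data known.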

Additional observations from a re-analysis of the deposited data

How the results depend on the processing

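No paired analysis was possible because mouse numbers are not shared between groups. In CCKRi against Lep(ob/ob), the 5 genes called became 3 with no filter on low counts, 2 with library size alone (added after seeing the data) or without the 4 mice of the highest adipocyte level, 1 in batch B alone or with only the groups compared, and 0 with either drug alone. Over all genes, the 0.0586% called became 0.673% with DESeq2 and batch, 18.4% with DESeq2 without batch, 4.17% with edgeR without batch, 0.0224% with only the groups compared, 0.0142% in batch B alone and 0.0% with either drug. Leaving out each mouse gave 0 to 3 of the 5 genes and 0.0% to 0.0657% of all genes, the lowest without mouse 72 or 74 for both, and without WT mouse 5494 for the 5 genes. In Lep(ob/ob) against WT, leaving out each mouse gave 2 of the 5 genes throughout and 6.14% to 10.5% of all genes. Of the 5 genes 1 was called in batch B alone in place of 2, and the 9.07% of all genes became 6.97% with at least 10 counts in every mouse, 5.75% with library size alone, 5.84% without batch and 0.057% in batch B alone. In CCKRi against WT, the 2 called became 4 with library size alone or without the 4 mice, 1 with proglumide and 0 in batch B alone. The 5.57% of all genes became 16.98% with DESeq2 without batch, 10.5% with edgeR without batch, 9.64% without the 4 mice, 3.91% with at least 10 counts, 2.18% with only the groups compared, 1.65% with proglumide and 0.0926% in batch B alone. Leaving out each mouse gave 2 to 3 of the 5 genes and 3.70% to 7.17% of all genes. Fewer mice enter the fits of batch B and of 1 drug, and otherwise the cause was not tested. Values that changed sign, all of them uncalled, were Cacnb2 in Lep(ob/ob) against WT within batch A (0.0361), Dync2h1 there within batch B (-0.34), Itih4 in CCKRi against WT without batch (-0.45 with edgeR, -0.46 with DESeq2) and Nat8 in CCKRi against WT with library size alone (0.045). Library size alone moved the median log2 value of all genes to 0.31 in CCKRi against Lep(ob/ob), 0.47 in CCKRi against WT and 0.15 in Lep(ob/ob) against WT. TMM counts per M in place of the normalized counts moved no ratio of group means by more than 1 SD. The genotype by batch test called 0 of 13660 genes, with 1611 at an unadjusted p under 0.05 (edgeR, no other tool run). Dixon's test marked no mouse as outlying for the 5 genes. Nat8 rests on 12 to 91 reads per mouse, the fewest of the 5 genes.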
